A study of Homo sapiens with 4 samples.

Results

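The replication-dependent histone genes examined here are the rows of a gene count table whose name begins with HIST1H, HIST2H, HIST3H or HIST4H and whose summed count over 4 libraries was at least 20. The table had 56271 rows, 89 rows carried one of these names, and 66 of the 89 reached the minimum. Members were thus selected on the summed count, so their levels are given as a description. By class, 5 members encode the linker histone H1, 15 the core histone H2A, 22 H2B, 11 H3 and 13 H4. In the GENCODE annotation 56 are protein coding and 10 are pseudogenes.

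The RNA came from SKBR3, a breast cancer cell line with amplified HER2, and was enriched for poly-A tails before sequencing. The question is how transcript levels differ once VIRMA, an auxiliary subunit of the m6A RNA methyltransferase complex, is overexpressed. Control cells (eGFP control, 2 libraries) had been transduced with a FUW lentiviral vector carrying eGFP, and VIRMA-overexpressing cells (2 libraries) with the same kind of vector carrying HA-tagged full-length VIRMA and eGFP separated by p2A. Both groups therefore express eGFP and carry a viral insertion, both derive from 1 cell line, and the 2 libraries of a group are the study's duplicates. Per the study's methods both were sorted for eGFP by flow cytometry and expanded, so each is a sorted population and not a single clone. For all 4 libraries the labels' culture text speaks of hypoxia and of protein extraction, although the study describes its mRNA sequencing without hypoxia. The oxygen level is therefore unsure, with the same text for either group.

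Replication-dependent histone mRNAs are made in S phase, when new DNA has to be packed into nucleosomes. They are unlike other mRNAs in that their 3′ end is cut just after a short stem-loop, which SLBP binds, and carries no poly-A tail. Many of these genes also have polyadenylation signals further downstream, and longer, polyadenylated transcripts are known from cells that have stopped dividing. A poly-A-enriched library is therefore not expected to hold the stem-loop form in proportion to its amount in the cell, and every level below is a level in poly-A-enriched RNA.

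The stem-loop was searched for on the gene's strand of the GRCh38 genome, within 200 bases past the last coding base of the 56 coding members. The search was for a 16-base hairpin with a stem of 6 base pairs that opens with GG and closes with CC, at most 1 unpaired stem position, and a loop of 4 bases that starts with T. All 56 had a match, between 26 and 71 bases past the last coding base. The form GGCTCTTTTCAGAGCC was found in 32 members, including the 4 coding H1 rows, and 12 of 12 coding H4 rows had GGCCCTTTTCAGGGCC (9 rows) or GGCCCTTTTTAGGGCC (3 rows). The sites below show the 8 forms found, each in 1 named member or, where a form occurred once, in the only row that had it, and the last 2 lines add HIST1H3G and HIST1H2BN, long rows that were called in opposite directions. Capitals mark the 16-base stem-loop and lower case the 5 bases on either side, 5′ to 3′ on the gene's strand.
HIST1H1C, chr6:26055739-26055764, minus strand: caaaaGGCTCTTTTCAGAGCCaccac
HIST1H4H, chr6:26285126-26285151, minus strand: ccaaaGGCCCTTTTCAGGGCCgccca
HIST1H2BK, chr6:27146361-27146386, minus strand: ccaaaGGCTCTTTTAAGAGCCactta
HIST1H4I, chr6:27139649-27139674, plus strand: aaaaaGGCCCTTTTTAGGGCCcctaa
HIST1H3E, chr6:26225591-26225616, plus strand: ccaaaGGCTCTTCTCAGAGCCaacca
HIST1H2BI, chr6:26273387-26273412, plus strand: ccaaaGGCTCTTCTAAGAGCCaccca
HIST1H2AG, chr6:27133510-27133535, plus strand: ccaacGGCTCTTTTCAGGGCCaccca
HIST2H2AC, chr1:149887386-149887411, plus strand: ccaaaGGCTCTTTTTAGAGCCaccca
HIST1H3G, chr6:26270918-26270943, minus strand: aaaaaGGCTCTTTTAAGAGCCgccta
HIST1H2BN, chr6:27839085-27839110, plus strand: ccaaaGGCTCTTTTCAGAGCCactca
The median log2 fold change was -0.23 over the 32 members with the commonest form, -0.62 over the 8 with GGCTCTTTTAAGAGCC and -0.16 over the 9 with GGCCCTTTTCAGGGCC, and no difference between forms was tested.

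The rows of the table differed in how far they reach past this site. In 34 coding members the counted exons ended at the stem-loop or before it, with at most 86 bases beyond, and 25 of these rows held no base of the stem-loop at all. In the other 22 the counted exons held 212 to 4131 bases past the stem-loop, in sequence that a transcript of the gene cut there does not hold. Some of these rows share exonic bases with a row of another gene, as HIST2H4A does with HIST2H3C over 173 bases. Not every read in the long rows need therefore come from a longer histone transcript. The HIST1H2BJ row held 0 bases of the stem-loop itself. Rows that ended at the stem-loop were 312 to 775 bases long and rows that ran past it 834 to 5477 bases. In the newer annotation 7 of the 22 long rows are shortened to less than 50% of their length. Of the 22, 11 are shorter there, 7 are longer and 4 are equal in length.

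VIRMA, the gene that was raised, is listed under its older symbol KIAA1429. It had 710 and 682 counts in the eGFP control libraries against 3437 and 3460 under VIRMA overexpression. Its level was 4.76-fold higher (log2 fold change 2.25 ± 0.067 SE, edgeR adjusted p = 1.03e-16), and the groups did not overlap. The libraries held 81446932 to 86375474 counts. Of 6 SKBR3 markers all were present in every library, ERBB2 at 580259 to 600215 counts. Of these markers 1 rose (GRB7, log2 fold change 0.39), 3 fell (KRT8 -0.55, EPCAM -0.43, KRT19 -0.16) and 2 did not pass. Some markers of other cells also moved with the group. Of 12 erythroid genes 6 could be tested and 5 fell. Their summed level (CPM, counts scaled to library size with TMM factors) was 20.6 and 28.4 under eGFP control. It had a mean of 0.448 under VIRMA overexpression, where HBB was at 0. In these libraries 7 of the 12 were at 0. Of 13 leukocyte markers 9 were tested and 5 fell (29.3 to 32.2 CPM in sum under eGFP control, with a ratio of 0.519). That sum was mostly CSF1R, at a mean of 27.2 CPM under eGFP control and 13.7 CPM under VIRMA overexpression. CD3E and NKG7 stood above both controls but did not pass, and MS4A1 was at 0 in all. Of 6 fibroblast markers 3 were tested and 1 fell (13.5 to 13.9 against 8.30 to 8.90 CPM). This was COL1A1, which held most of the sum, with means of 13.4 and 8.49 CPM. Mitochondrial genes took 11.4% to 11.6% of the counts under eGFP control and 12.8% in both libraries with raised VIRMA. The part of these genes in the histone results was not tested.

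The members were a small share of the libraries and a few rows held most of their counts. Member counts summed to 26126 and 26203 under eGFP control and 24334 and 23521 under VIRMA overexpression, 0.0289% to 0.0306% of all counts. HIST1H1C, which encodes the linker histone H1.2, and HIST1H2BK, an H2B gene, together held 38.1% to 44.8% of the member counts, and the 10 largest rows 81.2% to 82.3%. Per length HIST1H2BK stood first, with 173 and 178 RPKM (reads scaled to exon length and library total) under eGFP control and 140 and 129 RPKM under VIRMA overexpression. HIST1H1C came next with 110 and 106 RPKM against 91.4 and 94.7 RPKM, and HIST3H2A, an H2A gene of the small cluster on chromosome 1, followed at a mean of 30.9 RPKM over the 4 libraries. HIST1H2BD and HIST1H4I, at means of 18.4 and 18.1 RPKM, could not be set in order, since their libraries spread over 16.4 to 19.8 RPKM and 15.0 to 19.9 RPKM. At the other end, 22 members had a summed count below 100. The members just inside the minimum were HIST2H2AA4 with a sum of 20, HIST2H3D with 21 and HIST1H4PS1 with 23, and the rows just outside it were HIST1H2BB with 17, HIST2H4B with 15 and HIST1H4G with 11.

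**Figure D1:**
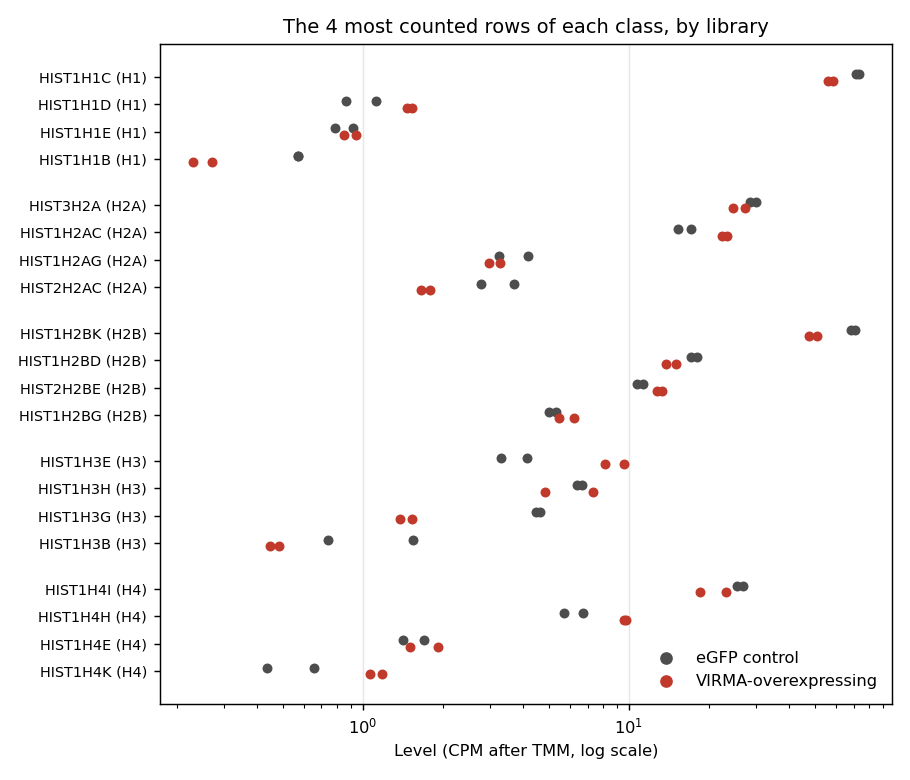
Level of the 4 rows with the largest summed count in each histone class, in CPM after TMM normalization on a log scale; each point is 1 library, grey for the eGFP control and red for VIRMA-overexpressing cells. HIST1H1C and HIST1H2BK lie at 47.5 CPM or above in every library, and HIST1H3E, HIST1H4H and HIST1H2AC lie higher in both VIRMA-overexpressing libraries than in both controls.

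Across the 66 members, 8 rose and 17 fell with VIRMA overexpression, and 41 did not pass the test (edgeR's quasi-likelihood test, Benjamini-Hochberg adjusted p below 0.05 over 22925 rows). That is 12.1% and 25.8% of the members, against 21.2% and 22.9% of all rows tested, so that calls toward higher were a smaller share of the members than of all rows and calls toward lower a share near the background. With a log2 fold change past 1 or -1 as well, 3 rose and 9 fell, and of all rows 4.69% and 3.49% passed in these directions. The 25 members that passed were all protein coding. The 10 pseudogene members had summed counts of 23 to 547 and standard errors of the log2 fold change of 0.22 to 1.31, which limited what could be called. The groups did not overlap in 44 members, with both VIRMA-overexpressing libraries above both controls in 16 and below in 28, against 35.8% and 33.7% of all rows. The median log2 fold change of the members was -0.26, beside 0.04 over all rows, and single members ranged from -2.28 to 2.57. The summed level was 317.8 ± 0.77 CPM under eGFP control and 279.2 ± 1.34 CPM under VIRMA overexpression (SD, n = 2), a ratio of 0.878. On the same scale the sum over all rows tested had a ratio of 0.919. As a share of library counts the members stood at 0.0306% and 0.0303% under eGFP control and 0.0293% and 0.0289% under VIRMA overexpression. Scaling by library totals alone raised the median of all rows by 0.12 on the log2 scale and turned the split into 11 higher and 11 lower members, with 27.6% and 17.5% of all rows called. With a filter of RPKM above 1 in at least 2 libraries, which 37 members passed, 9 rose and 14 fell, with 35.1% and 35.9% of the 12205 rows that passed it. DESeq2 called 5 members higher and 12 lower, with 17.5% and 21.5% of all rows. The counts also depended on single libraries: 4 members rose and 10 fell without VIRMA replicate 1, 5 and 7 without VIRMA replicate 2, 7 and 11 without control replicate 1, and 9 and 14 without control replicate 2. In a bulk library fewer cells in S phase and less polyadenylated histone RNA per cell cannot be told apart. The study reports more growth and more colonies for SKBR3 cells with raised full-length VIRMA than for controls, and the relation of growth to these levels was not tested.

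Precision followed depth. In the 16 members with a summed count of at least 1000 the standard error of the log2 fold change was 0.043 to 0.17, and in the 22 below 100 it was 0.61 to 1.31, so that small changes were not detectable in the latter. Of the 41 members that did not pass, 25 had a summed count below 200. Of the 25 that passed, 10 passed in the same direction in every one of the alternative fits that tested them, including the 4 fits that each left out 1 library. These were HIST1H2AC, HIST1H2BN, HIST1H3E and HIST1H4H, which rose, and HIST1H1C, HIST1H2BJ, HIST1H2BK, HIST1H3A, HIST1H3C and HIST1H3G, which fell. HIST1H3A and HIST1H3G passed the RPKM filter through the eGFP control group only, so the fit with that filter gives no support to their fall.

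**Figure D2:**
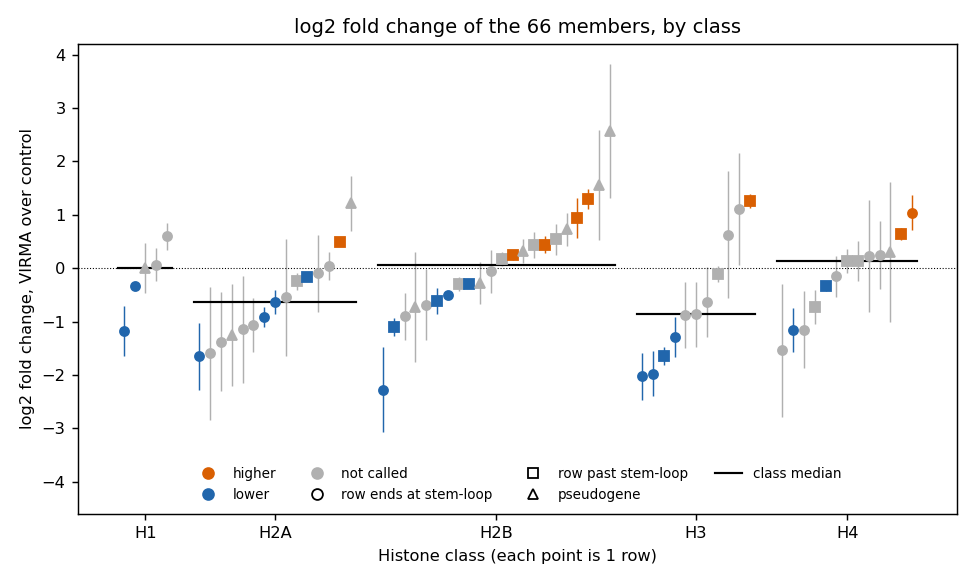
log2 fold change (VIRMA-overexpressing over eGFP control) of the 66 members, ordered within each class; bars are the standard error from edgeR, colour gives the call at an adjusted p of 0.05, shape gives where the counted row ends, and the black line is the class median. Rows that rose and rows that fell are present in H2A, H2B, H3 and H4, and the H3 class has the lowest median, -0.87.

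The linker histones, which bind the DNA between nucleosomes, were mostly HIST1H1C. It had 6049 and 5896 counts under eGFP control and 4869 and 4952 under VIRMA overexpression. It fell by 0.34 on the log2 scale with an SE of 0.043 (edgeR adjusted p = 7.98e-07), from 72.5 ± 1.29 to 57.3 ± 1.79 CPM (SD, n = 2). HIST1H1B (H1.5) had 47 counts in each control and 20 and 23 under VIRMA overexpression, a log2 fold change of -1.18 with an edgeR adjusted p of 0.047 that did not pass in any of the 4 fits that left out 1 library (0.11 to 0.18). HIST1H1D (H1.3) went the other way, with 71 and 92 against 127 and 130 counts and a log2 fold change of 0.60 that did not pass (edgeR adjusted p = 0.066), and HIST1H1E (H1.4) had 76 and 65 against 82 and 72 counts, with overlapping groups. The summed H1 level was 75.4 ± 1.19 CPM under eGFP control and 60.4 ± 1.69 CPM under VIRMA overexpression, and without HIST1H1C it was 2.82 ± 0.104 and 3.05 ± 0.098 CPM. The class median of 0.00 over 5 rows thus hides rows in both directions.

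H2A, which pairs with H2B at the outside of the nucleosome, had 1 row that rose and 4 that fell among 15. These are 6.67% and 26.7% of the H2A rows, against 21.2% and 22.9% of all rows tested. HIST1H2AC rose from 1260 and 1412 counts to 1942 and 1981 (log2 fold change 0.50 ± 0.072 SE, edgeR adjusted p = 6.44e-06), so that both VIRMA-overexpressing libraries stood above both controls. HIST3H2A, the most abundant H2A row, had 2469, 2361, 2379 and 2086 counts and fell by 0.17 (edgeR adjusted p = 0.031). That call was lost without control replicate 1 (-0.14), without VIRMA replicate 2 (-0.10), under 2 other scalings and under the RPKM filter. HIST2H2AC had 230 and 304 counts against 155 and 140 and fell by 0.91 (SE 0.19, edgeR adjusted p = 0.00048), a call lost only without VIRMA replicate 2 among the 4 fits (edgeR adjusted p = 0.056). HIST1H2AH fell from 28 and 39 counts to 11 and 11 (log2 fold change -1.65, edgeR adjusted p = 0.035), a call that held only without control replicate 1 among those fits. HIST1H2AG, an abundant row, had 344 and 268 against 259 and 278 counts and did not pass. The gains and losses left the summed H2A level at 58.2 ± 0.62 CPM under eGFP control and 58.1 ± 1.66 CPM under VIRMA overexpression, a ratio of 0.997, while the class median was -0.64. That median moved to -0.17 under the RPKM filter, -0.20 with at least 10 counts in every library and -0.21 without members of mean RPKM below 1.

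H2B held the largest share of the member counts, 37.1% to 40.4%. HIST1H2BK had 5634 and 5854 counts under eGFP control and 4435 and 4018 under VIRMA overexpression. It fell by 0.50 on the log2 scale with an SE of 0.046 (edgeR adjusted p = 7.92e-09), from 69.8 ± 1.91 to 49.3 ± 2.49 CPM (SD, n = 2). The summed H2B level went from 126.8 ± 2.59 to 106.4 ± 4.37 CPM, and without HIST1H2BK it was 57.0 ± 0.68 and 57.1 ± 1.88 CPM, so the difference in the sum lay in that row. Of the 22 H2B rows 18.2% rose and 22.7% fell, near the 21.2% and 22.9% of all rows tested. In the 21 rows other than HIST1H2BK, 4 rose, 4 fell and 13 did not pass.

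Among these, HIST1H2BN rose from 119 and 113 counts to 308 and 283 (log2 fold change 1.29 ± 0.19 SE, edgeR adjusted p = 5.34e-06). Its row spans 5477 exonic bases, overlaps the HIST1H2AK row on the opposite strand by 393 bases and HIST1H2AL by 4 bases, and whether the counting used strand is not stated. HIST1H2BJ fell from 355 and 347 to 188 and 154 (-1.10 ± 0.17 SE, edgeR adjusted p = 1.05e-05). HIST2H2BE had 929 and 886 against 1158 and 1084 counts and rose by a small amount (log2 fold change 0.25, edgeR adjusted p = 0.022), a call that held only without control replicate 1 among the 4 fits with 1 library left out. HIST1H2BD, with 1417 and 1489 against 1312 and 1166 counts, fell by 0.29 on the log2 scale (edgeR adjusted p = 0.0039), which was not called without VIRMA replicate 2 (edgeR adjusted p = 0.095) or with library totals (log2 fold change -0.17, edgeR adjusted p = 0.088). HIST1H2BG, with 440 and 414 against 541 and 462 counts, did not pass. HIST3H2BB (log2 fold change 0.44), HIST1H2BF (0.94) and HIST1H2BM (-2.28) also passed, but each of their edgeR adjusted p-values reached its highest value, 0.20, 0.57 and 0.12, without VIRMA replicate 2. With 1 library left out, HIST3H2BB and HIST1H2BM passed in none of the 4 fits and HIST1H2BF only without control replicate 2. HIST1H2BM had 25 and 27 counts under eGFP control and 7 and 4 under VIRMA overexpression, the lowest log2 fold change of all members.

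H3 is the core histone whose tail carries many of the known chromatin marks, and its well-counted rows diverged. HIST1H3E rose from 272 and 340 counts to 832 and 690 (log2 fold change 1.25 ± 0.13 SE, edgeR adjusted p = 6.28e-08). HIST1H3G fell from 370 and 381 counts to 120 and 130 (-1.64 ± 0.17 SE, edgeR adjusted p = 5.23e-08). Both genes encode the same replication-dependent H3 protein, and in neither did the groups overlap.

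Of the shorter H3 rows, HIST1H3A had 70 and 64 counts against 14 and 20, and HIST1H3C 100 and 81 against 36 and 12. Their log2 fold changes were -2.03 and -1.97 (edgeR adjusted p = 0.00066 and 0.00055). HIST1H3B had 127, 61, 42 and 38 counts, and its log2 fold change of -1.29 passed (edgeR adjusted p = 0.0063). Without control replicate 1 it became -0.67 (edgeR adjusted p = 0.28), and it did not pass without either VIRMA library (edgeR adjusted p = 0.15 and 0.17). HIST1H3H, at 527, 551, 421 and 622 counts, had overlapping groups. With HIST1H3E the summed H3 level was 19.0 ± 0.25 CPM under eGFP control and 18.2 ± 0.52 CPM under VIRMA overexpression, and without it 15.3 ± 0.34 and 9.31 ± 1.52 CPM.

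H4, the partner of H3 at the core of the nucleosome, is encoded by genes with 2 stem-loop forms of their own. HIST1H4I had 2106 and 2222 counts under eGFP control and 1606 and 1954 under VIRMA overexpression and fell by 0.34 (SE 0.080, edgeR adjusted p = 0.0015). The call rested on VIRMA replicate 1: without it the log2 fold change was -0.18 (edgeR adjusted p = 0.11). HIST1H4H rose from 552 and 469 counts to 845 and 809 (log2 fold change 0.64 ± 0.11 SE, edgeR adjusted p = 4.17e-05). The smaller HIST1H4K row went from 36 and 54 counts to 103 and 90 (1.04, edgeR adjusted p = 0.012), and HIST1H4C from 61 and 53 to 25 and 28 (-1.16, edgeR adjusted p = 0.030). Of the 4 fits that left out 1 library, the calls of HIST1H4K and HIST1H4C each held only without control replicate 2. All of the 163 windows of 150 bases in the HIST1H4K row also occur in HIST1H4J, so reads of those genes can be hard to assign. HIST1H4E had 140 and 117 against 166 and 127 counts and did not pass. The summed H4 level was 38.4 ± 0.26 CPM under eGFP control and 36.1 ± 2.49 CPM under VIRMA overexpression, whose libraries stood at 34.4 and 37.9 CPM.

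**Figure D3:**
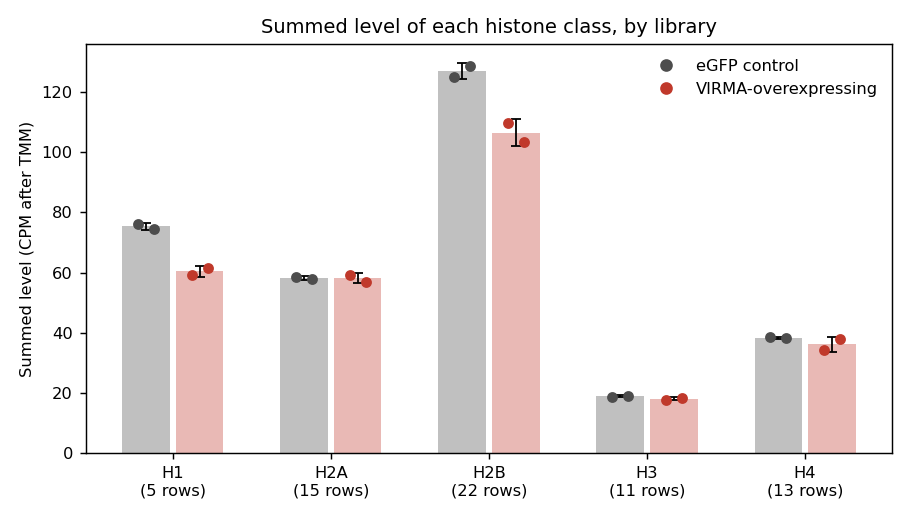
Summed level of each histone class in CPM after TMM normalization; bars are the mean of 2 libraries, error bars the SD and points the libraries, grey for the eGFP control and red for VIRMA-overexpressing cells. After this scaling H1, H2B, H3 and H4 are lower in both VIRMA-overexpressing libraries, with ratios of 0.801, 0.839, 0.956 and 0.942. H2A has a ratio of 0.997 and its libraries overlap between groups. The summed level of all rows tested has a ratio of 0.919, so the ratios of H2A, H3 and H4 lie above it.

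The members were also described by where their counted row ends, with no test of the difference between the row groups. The 34 coding rows that end at the stem-loop had a median log2 fold change of -0.77, with 1 that rose and 11 that fell. That is 2.94% and 32.4% of these rows, against 21.2% and 22.9% of all rows tested. Their summed level was 161.9 and 161.6 CPM under eGFP control and 120.8 and 119.0 CPM under VIRMA overexpression. The 22 rows that run past it had a median of 0.14, with 7 that rose and 6 that fell (31.8% and 27.3%). Their summed level was 151.6 and 152.7 CPM against 153.8 and 154.7 CPM. The lower summed level of the members thus lay in the rows that end at the stem-loop, and mostly in HIST1H1C and HIST1H2BK, which went from 142.3 to 106.6 CPM together. Without those 2 rows the other 32 summed to 19.4 ± 0.78 CPM against 13.3 ± 0.56 CPM (SD, n = 2), a ratio of 0.684 and a median of -0.87.

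Depth differed between these row groups, and its part in the difference was not tested. All 22 rows that run past the stem-loop had a summed count of at least 200, whereas 23 of the 34 that end there had less. Among rows with at least 200 counts the median was -0.34 over 11 rows that end at the stem-loop and 0.14 over 22 rows that run past it. Calls were 1 higher and 6 lower (9.09% and 54.5%) against 7 and 6 (31.8% and 27.3%). The median of the long rows was near 0 and changed sign without control replicate 2 (-0.03) and when rows with a mean RPKM below 1 were left out (-0.14), when overlapping rows were left out (-0.14) and under the RPKM filter (-0.10), whereas that of the short rows stayed between -0.94 and -0.46 in every alternative. Members of both kinds rose and fell. HIST1H3G, a row with 1518 bases past the stem-loop, fell by 1.64, and HIST1H4K, a row of 312 bases, rose by 1.04. In the newer annotation HIST1H3G has 496 exonic bases against 2411 here, so how far it runs past the stem-loop depends on the annotation.

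**Figure D4:**
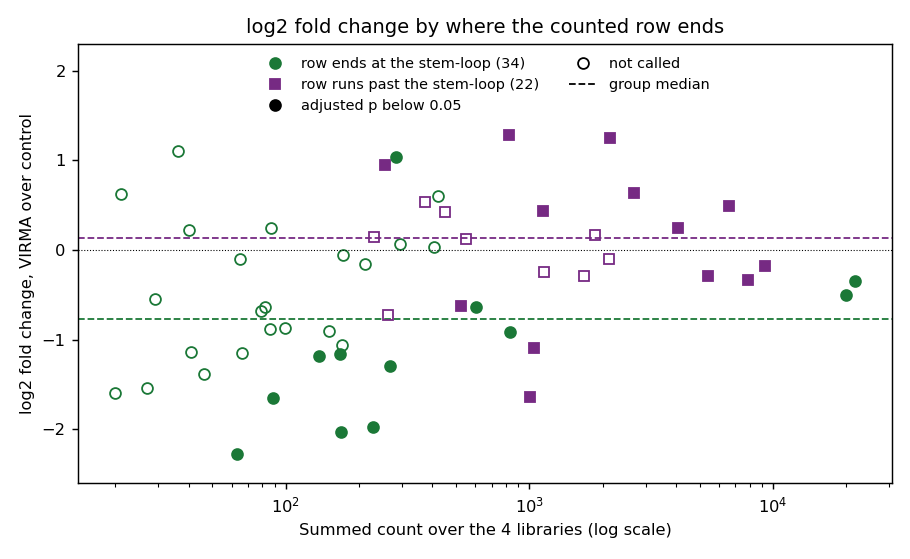
log2 fold change of the 56 coding members against their summed count over the 4 libraries (log scale); green circles are the 34 rows that end at the stem-loop, purple squares the 22 rows that run past it, filled where the adjusted p is below 0.05, and dashed lines are the group medians, -0.77 and 0.14. Rows below 200 counts are all of the green kind, and above 200 counts both kinds are found on both sides of 0.

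Histone genes lie in clusters, and within each cluster with calls they were in both directions. Of all rows tested 21.2% were called higher and 22.9% lower, so calls in both directions are not particular to these clusters. The HIST1 genes form 2 stretches on chromosome 6. In chr6:26020490-26285638, which holds 29 members, 4 rose and 9 fell (13.8% and 31.0%), and in chr6:27125897-27893843, which holds 20, 2 rose and 6 fell (10% and 30%). The 12 HIST2 members of chromosome 1 had 1 call in each direction and the 4 HIST3 members likewise, and the 1 HIST4 member, HIST4H4, did not pass (90 and 72 against 57 and 45 counts). Many H2A and H2B genes stand back to back and share the sequence between their starts. Of 11 such pairs, with gaps of 218 to 381 bases, 8 had both genes among the members. In 3 of the 8 the partners were called in opposite directions: HIST1H2AC rose and HIST1H2BC fell, HIST2H2AC fell and HIST2H2BE rose, and HIST3H2A fell and HIST3H2BB rose. Partners were called in the same direction in 1 pair, HIST1H2AH and HIST1H2BK, which both fell, and the difference within a pair was not tested. The opposite calls depended on single libraries and on the method: 2 of the 8 pairs had them without control replicate 1, 0 of 8 without control replicate 2, without either VIRMA library or with DESeq2, and 1 of 8 with library totals or upper-quartile factors. The HIST1H2BC call also held only without control replicate 1 among these fits.

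RefSeq promoters (GRCh38.p14, 250 bases before to 50 after the start) were matched for 51 of the 56 coding members. TATAAA was found on either strand in 66.7% of them and in 14.0% of the 27305 genes with a promoter, and CCAAT in 84.3% and 39.7%. The octamer ATTTGCAT, the site of OCT1 in H2B promoters, was found in 12 of 16 H2B and 8 of 12 H2A promoters, in 0 of 23 promoters of the other classes and in 2.19% of all genes. None of these motifs contains another, but the windows of back-to-back partners can cover the same bases, so 1 match can count for both genes.

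Replication-independent histone genes are expressed outside S phase as well, mostly from ordinary polyadenylated mRNAs, though H2AFX is known to make a stem-loop mRNA too. Of 12 such genes 0 rose, 10 fell and 2 did not pass, with a median log2 fold change of -0.47 and a summed level of 2944 ± 30.4 CPM under eGFP control and 1998 ± 6.98 CPM under VIRMA overexpression. H2AFX, the H2A variant that is phosphorylated at DNA breaks, had 18048 and 17949 counts against 8241 and 8028 and fell past 2-fold (edgeR adjusted p = 3.17e-17). H2AFZ, the H2A variant found around promoters, had 37856 and 36891 against 17986 and 17038 counts and fell by 1.15 (SE 0.030, edgeR adjusted p = 1.32e-17). H3F3A and H3F3B, which both encode the replacement histone H3.3, fell by 0.50 and 0.27 on the log2 scale. The linker variants H1FX and H1F0 fell by 0.69 and 0.28, and CENPA, the centromeric H3, by 0.44 from 2171 and 2252 to 1718 and 1673 counts.

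The machinery that makes and degrades stem-loop histone mRNA was described by 20 genes, of which 19 could be tested. Of these 2 rose, 13 fell and 4 did not pass, with a median log2 fold change of -0.43. SLBP, the stem-loop binding protein, had 3293 and 3150 counts against 1938 and 1908 and fell by 0.80 (SE 0.057, edgeR adjusted p = 1.2e-10). LSM10 and LSM11, subunits of the U7 snRNP that directs the cut after the stem-loop, fell by 0.43 and 0.37, and ERI1, an exonuclease that trims and degrades histone mRNA, by 0.56 from 660 and 672 to 499 and 444 counts. The transcription factor NPAT had 447 and 534 against 576 and 490 counts and did not pass. Its partner CASP8AP2 (log2 fold change -0.22, edgeR adjusted p = 0.15) and the U7-associated zinc finger protein ZNF473 (0.07, edgeR adjusted p = 0.54) did not pass either. U7 snRNA itself, which has no poly-A tail, was listed at 0 in all libraries.

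Other lists of partners were mostly lower too. Of 8 genes of the NELF complex, CDK9, ARS2 and the cap-binding complex, whose loss is known to yield polyadenylated histone mRNA, 0 rose and 7 fell, with a median of -0.28. Of 21 histone chaperones and nuclear import genes 1 rose and 16 fell, with a median of -0.39. The 30 S phase genes all fell, from -2.10 to -0.70 on the log2 scale with a median of -1.43, and their summed level went from 2673 and 2686 CPM under eGFP control to 1065 and 1090 CPM. That list moved together with the group, and its part in the histone results was not tested. The study reports more growth of SKBR3 cells with raised VIRMA, and how growth relates to this list was not tested either. Of 14 RNAs that carry no poly-A tail, 8 reached 20 counts, 3 rose and 0 fell, and their summed level overlapped between groups (243 and 296 CPM against 222 and 268 CPM).

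**Figure D5:**
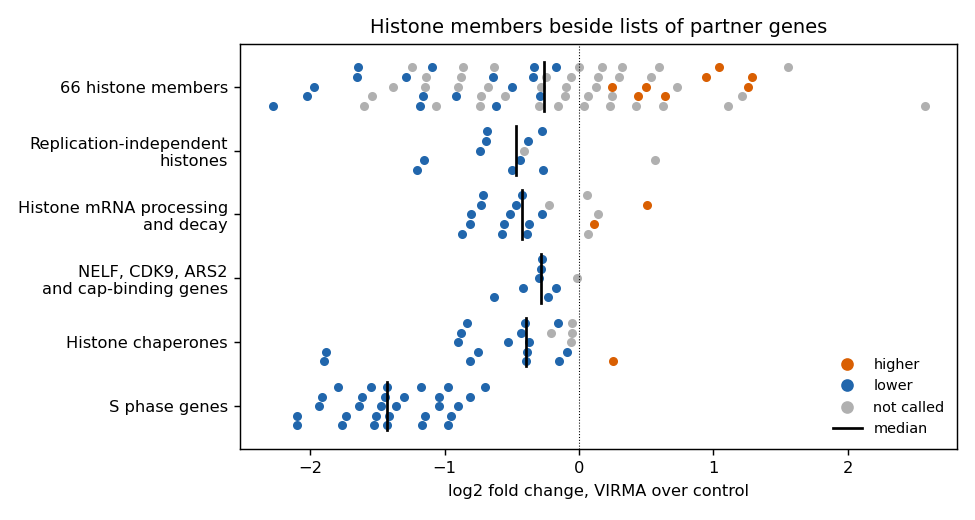
log2 fold change of the 66 histone members beside replication-independent histones (12 genes), histone mRNA processing and decay (19), NELF, CDK9, ARS2 and cap-binding genes (8), histone chaperones (21) and S phase genes (30); each point is 1 gene, colour gives the call at an adjusted p of 0.05 and the black line is the median. The members spread from -2.28 to 2.57 around a median of -0.26, whereas the 30 S phase genes lie between -2.10 and -0.70.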

How the data were processed

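Poly-A-enriched RNA of 2 eGFP control and 2 VIRMA-overexpressing SKBR3 cultures was sequenced with a stranded kit. The authors checked reads with FastQC, trimmed them with Trimmomatic 0.39, aligned them to hg38 (Ensembl release 86) with STAR 2.5.2a and counted them per gene with featureCounts of Subread, and deposited raw counts, not normalized, with exon coordinates. The strand setting of the counting and its handling of multi-mapped reads are not given in the sources used here, so overlapping or near-identical histone rows are uncertain: 9 members overlap another row and 15 share a 150-base window with another histone row. The 2 columns headed by a number were given to the group left over, VIRMA overexpression, and the level of VIRMA checks this.

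Rows with a summed count of at least 20 (22925) entered edgeR's quasi-likelihood test (edgeR 4.0.16, R 4.3.3), with TMM scaling, a single term for group and p-values adjusted over all rows by Benjamini-Hochberg. A member rose or fell at an adjusted p below 0.05. CPM are scaled by TMM, RPKM by library totals and exonic length, and errors are SD over 2 libraries or the SE of the fit. With 2 libraries against 2 an exact permutation test cannot go below p = 0.333, so calls rest on the spread shared across rows, which was 5.05% (biological coefficient of variation). Replicates differed by more than counting noise (chi-square per degree of freedom 6.34 for eGFP control, 5.18 for VIRMA overexpression).

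The study states a filter of RPKM above 1. Applied here as above 1 in at least 2 libraries, it passed 37 members, 4 of them through 1 group only, and is an alternative, since it depends on the groups. Other alternatives were DESeq2 1.42.0, voom of limma 3.58.1, 3 other scalings, 3 other filters, the replicate number as a block, each library left out in turn, subtraction of a trend with exonic length, and members left out. Only the edgeR fit with TMM was tried on simulated counts, with far fewer changed rows than the data and all of them well counted. The other fits were not simulated. Classes come from the symbols, coding status from GENCODE v44 and current names from RefSeq, which matched all 66 members. A row runs past the stem-loop when at least 100 exonic bases lie beyond it. The members and all lists were chosen with earlier results of these data known. Named are the 4 members of each class with the most counts, the 8 with the largest and the 8 with the smallest log2 fold change that passed without overlap of groups, the 3 rows on either side of the minimum, and 7 processing and 7 variant histone genes; other genes were named after their values were seen.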

Additional observations from a re-analysis of the deposited data

How the results depend on the processing

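VIRMA was called higher in every alternative (log2 fold change 2.22 to 2.28 with 1 library left out), and the median of the members stayed between -0.32 and -0.13 in all alternatives run. Among the 25 called members, 15 lost their call in at least 1 alternative fit. With 1 library left out a group has 1 library, which is assumed to vary like the other: 4 to 9 members were called higher, 2 to 6 of them past 1, and 7 to 14 lower, 3 to 7 past -1. The past-1 count of 6 higher came without control replicate 2, and that of 3 lower without VIRMA replicate 2. Over the same 4 fits the medians ranged from -0.30 to 0.14 for H1, -0.80 to -0.38 for H2A, 0.05 to 0.13 for H2B, -1.32 to -0.47 for H3, -0.27 to 0.044 for H4, -0.032 to 0.27 for rows past the stem-loop and -0.72 to -0.66 for rows ending there. Those of the S phase, processing and replication-independent lists ranged from -1.47 to -1.40, -0.49 to -0.38 and -0.56 to -0.45. The H1 median turned negative without VIRMA replicate 1 and without either control, and the H4 median turned negative without VIRMA replicate 1 (-0.18) and without control replicate 2 (-0.27). The H4 median, 0.13, was also negative with voom (-0.13), with the replicate block (-0.14), with at least 10 counts in every library (-0.0050) and without pseudogenes, overlapping rows or members of mean RPKM below 1 (-0.013 each).

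DESeq2 called 5 members higher and 12 lower, each also called by edgeR, and gave no adjusted p for 3. Library totals called 11 lower and 5 higher past 1, with medians of 0.13 (H1), 0.18 (H2B), -0.35 (replication-independent), -1.31 (S phase), -0.31 (processing) and 0.26 (rows past the stem-loop). Upper-quartile factors gave -1.39 for S phase genes and 0.17 for rows past the stem-loop. The RPKM filter gave 0.11 (H1), -0.25 (H2B), -1.43 (H3), -0.55 (replication-independent), -1.39 (S phase), -0.10 (rows past the stem-loop) and -0.46 (rows ending there). Subtracting a trend with exonic length gave -0.16 (H1), -0.061 (H2B), -0.52 (replication-independent), -0.47 (processing), 0.11 and -0.94 for the same row groups. The medians by row end, the counts past 1, the pair counts and the repeats for named members were added after seeing the data. Leaving out members below a mean RPKM of 1 gave -0.17 (H2B), -1.47 (H3), -0.14 and -0.50 for the row groups, leaving out overlapping rows -0.14 (H1), -0.17 (H2B) and -0.14 (rows past the stem-loop), and leaving out pseudogenes -0.14 (H1) and -0.17 (H2B). The cause of these shifts was not tested beyond the members each filter removes. Log2 fold changes that changed sign belonged to members that were not called: with 1 library left out, HIST1H1E ranged from -0.039 to 0.19 (-0.0042 without VIRMA replicate 1), HIST1H3H from -0.43 to 0.17, HIST1H4E from -0.052 to 0.29 and HIST1H4PS1 from -5.37 to 1.28, in each case with the sign turned without VIRMA replicate 1. HIST1H3H also went to 0.018 with library totals, and HIST1H4PS1 to -1.09 with voom and -0.40 with the replicate block.

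The replicate numbers are shared by the groups, but same-numbered libraries did not deviate together (correlation of deviations 0.0373 over 14974 rows), so the numbers are not taken to pair them. With the replicate number as a block, 8 members were called higher and 18 lower, 3 and 10 of them past 1, with a member median of -0.29, an H4 median of -0.14 and a VIRMA log2 fold change of 2.25.

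The depth of 81446932 to 86375474 counts gave no standard error below 0.61 for members under 100 counts, so that the 41 members without a call are not shown to be unaffected. Whether the deposited counts hold stem-loop transcripts, longer polyadenylated ones or both cannot be read from a table of 1 count per row. With 2 libraries a group, the spread rests on all rows together.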

Other observations

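Of the 23 histone rows below the minimum, 14 were at 0 in all 4 libraries, and 7 of these share exonic bases with another row, as did 9 of the 66 members. HIST1H2AK lies wholly within the HIST1H2BN row on the opposite strand (393 bases). HIST1H2AM shares 346 of its 393 bases with HIST1H3J, HIST1H2AD shares 385 of 393 bases and HIST1H3D all 411 with a row named RP1-34B20.21, each on the same strand. A count of 0 in such a row says nothing on the gene's transcript, because a read in a shared stretch may have been given to neither row or to the other. The remaining 7 rows at 0 have no such overlap and include HIST1H1T, the testis-specific linker histone gene, and HIST1H2AA.

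The 10 pseudogene members had 0 calls, with standard errors of 0.22 to 1.31, and a median log2 fold change of 0.31. Their summed level was 3.91 ± 0.16 CPM against 5.06 ± 0.69 CPM under VIRMA overexpression (SD, n = 2). HIST2H2BC was the most counted, at 120, 118, 172 and 137 counts. HIST1H2APS3 had 18, 30, 89 and 28 counts, so that its log2 fold change of 1.22 lay in 1 library. The following genes were chosen after their values were seen. Among the histone chaperones, ASF1B, which hands H3 and H4 to the replication fork, fell from 4303 and 4527 to 1291 and 1174 counts (log2 fold change -1.90, edgeR adjusted p = 2.25e-16), whereas its paralogue ASF1A had 1047 and 1103 against 1132 and 1031 counts and did not pass. CHAF1A, the large subunit of the chromatin assembly factor that works at replication, fell by 1.88 on the log2 scale, and ATRX, part of a pathway that deposits H3.3, rose (0.25, edgeR adjusted p = 0.0088). In the processing list the members that rose were ZCCHC6, a uridylyltransferase of RNA ends (0.50, edgeR adjusted p = 6.1e-05), and SYMPK, the scaffold of the cleavage complex (0.11, edgeR adjusted p = 0.0094). Among the RNAs without a poly-A tail, RMRP had 7 and 37 counts against 107 and 125, RPPH1 86 and 109 against 188 and 154, and the abundant RN7SL1 9414 and 10968 against 8765 and 10549, with overlapping groups.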
